A study of Mus musculus with 26 samples.

Results

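Destabilization of the medial meniscus (DMM) is a mouse model of osteoarthritis in which the medial meniscotibial ligament is cut, so that the meniscus loses its anchor. Joints taken 2 weeks after DMM were compared here with joints taken at time 0, before any surgery, and the comparison ran over all genes measured. The members were chosen by the sample titles and were 5 of the 26 arrays of the series, 2 DMM pools and 3 time 0 pools. A further 3 pools from sham-operated joints at 2 weeks are given beside them. All mice were male C57BL/6 and those operated were 12 weeks of age at surgery, so that the DMM and sham mice were 14 weeks old when their joints were taken and the time 0 mice were 12 weeks old. Each pool held the RNA of 3 mice from the medial compartment of the knee. The tissue was articular cartilage, meniscus, capsule with synovium, and subchondral bone including osteophytes where present. The study's discussion counts ligament among the tissues too. It found osteophytes, mainly of cartilage, in DMM joints at 2 weeks. The comparison thus spans the ligament cut, the opening of the joint and 2 weeks of growth, which cannot be told apart in these 5 pools. Sham joints share the surgery and the age with DMM joints. DMM pool 1 was not run at 2 weeks because its RNA was not intact.

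A knee is an organ of several tissues that respond to injury in different ways. Fibroblasts of the capsule and synovium answer a wound by laying down collagens and the enzymes that cross-link them, by secreting proteases that loosen the old matrix, and by sending out growth factors and chemokines. Chondrocytes keep a matrix of type II collagen and aggrecan, osteocytes hold back bone formation through sclerostin, and the marrow spaces of the subchondral bone are filled with dividing blood cell precursors and fat cells.

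The values are log2 signals of Affymetrix probe sets, and the ratio given below is a log2 difference, DMM minus time 0, with its standard error (SE). A gene was represented by its brightest probe set and was called higher (up-regulated) or lower (down-regulated) at an adjusted p under 0.05 in limma. Because whole joint tissue was measured, fewer cells of a type and less RNA per cell cannot be told apart. Of 30 defining markers of the joint tissues fixed for this check, 25 had a probe set of their own, and all 25 passed the brightness filter. Signals of 27 skeletal muscle genes, a tissue outside the joint that a dissection can carry in, averaged 11.4 and 10.2 in the DMM pools, 12.0, 10.8 and 9.00 in the sham pools and 9.56, 10.7 and 10.2 in the time 0 pools. The log2 ratio of the 3′ to the 5′ control probe set of actin, which grows as RNA degrades, was 1.14 and 0.719 in the DMM pools, 0.608, 0.841 and 0.914 in the sham pools and 0.612, 0.561 and 0.614 in the time 0 pools. Both DMM pools thus lay above the 3 time 0 pools, and DMM pool 2 was the highest of all 8. The same ratio of Gapdh was 0.488 and 0.281 in the DMM pools and 0.211, 0.211 and 0.28 in the time 0 pools. Each ratio was added as a covariate in a fit of its own. Both ratios differ between the groups, so the part of RNA integrity was not separated from that of the group. The actin ratio in this use is called the actin covariate below. For lists with at least 4 calls in a direction, its count stands beside theirs where it is more than 1.5 times lower.

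In the DMM joints, 1891 of 11511 genes (16.4%) were higher and 1898 (16.5%) were lower than at time 0, so that 32.9% of all genes tested were called. Counted by probe set, 6658 of 22489 were called (29.6%), 719 of them with no symbol or several, and 3229 were higher (14.4%) and 3429 lower (15.2%). The counts in both directions were near each other, but the sizes were not. The median ratio was 0.49 among the genes called higher and -0.40 among those called lower, against -0.03 over all genes. A ratio of at least 1 was reached by 307 genes called higher and a ratio of -1 or less by 29 called lower. A ratio of at least 2 was reached by 45 genes and one of -2 or less by 2 genes. These counts cover genes above the brightness filter. It left out large ratios of both signs, such as Pck1 (-2.50) and Mfap4 (2.75) when all probe sets were tested. Some falls ended in dim signals, with DMM means of 7.53 for Ces1d, 7.68 for Cidec and 7.76 for Lipe. Whether dim signals limited the size of falls was not tested. The DMM pools lay beyond all time 0 pools in 3771 of the 3789 genes called (99.5%), and in 58.1% of all genes tested. By size alone, 1362 probe sets (6.06%) had a signal log ratio (SLR) of at least 0.5 in both DMM pools and 955 (4.25%) of -0.5 or less. Without DMM pool 2, the pool with the highest actin ratio, 1390 genes were higher and 1236 lower. Without DMM pool 3, 1411 were higher and 1043 lower. With the actin ratio as a covariate, 713 were higher and 524 lower, and with the Gapdh ratio 1649 were higher and 1708 lower.

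**Figure D1:**
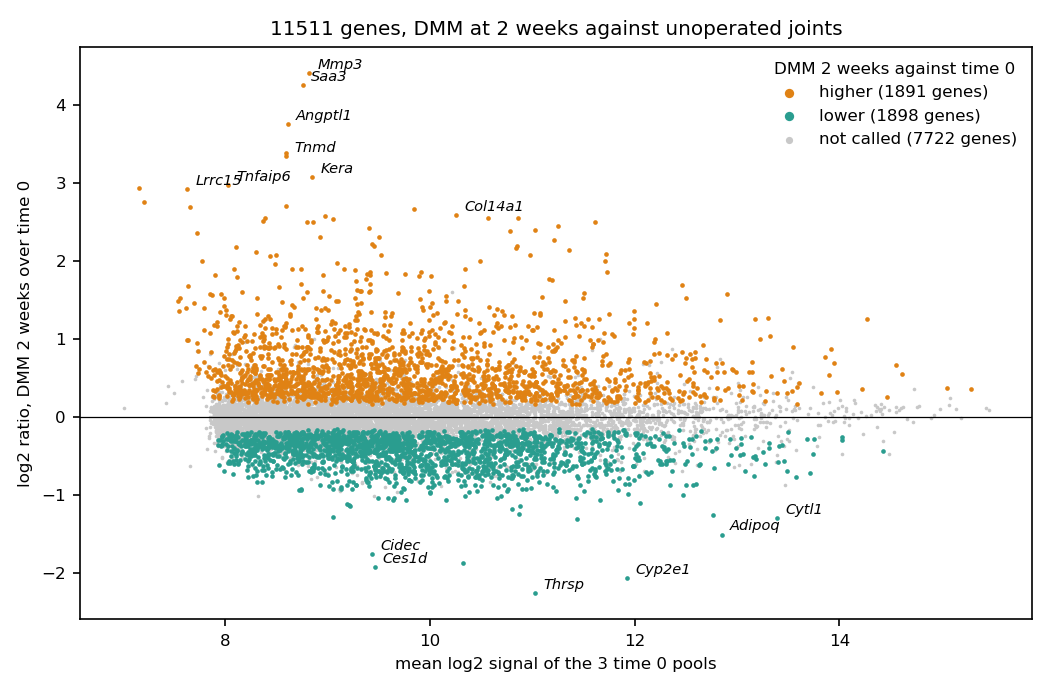
Each point is 1 of 11511 genes, with the time 0 log2 signal (mean of 3 pools) on the x axis and the log2 ratio of DMM at 2 weeks to time 0 on the y axis, coloured by call. The cloud of the 1891 genes called higher reaches 4.41 (Mmp3), whereas the 1898 called lower end at -2.26 (Thrsp).

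Mmp3 showed the largest rise of all genes called. It encodes stromelysin-1, a protease that cuts proteoglycans and activates collagenases. Its log2 signal was 13.43 and 13.02 in the DMM pools, against 9.21, 8.68 and 8.58 in the time 0 pools, a ratio of 4.41 ± 0.58 (SE; adjusted p = 2.97e-05, limma) or 21.2-fold. Saa3, an acute-phase serum amyloid A that injured tissue makes locally, followed with 13.51 and 12.51 in the DMM pools, against 8.81, 8.65 and 8.82 in the time 0 pools, a ratio of 4.25 ± 0.75 (adjusted p = 0.00031) or 19.1-fold. Every DMM pool stood more than 3 log2 units above every time 0 pool for both genes. The next ratios among genes called belonged to Angptl1, an angiopoietin-like secreted protein (3.75 ± 0.45, in 2 of its 3 probe sets in the same direction), C1qtnf3, a secreted C1q-family protein (3.38 ± 0.68), Tnmd, the tendon membrane protein tenomodulin (3.34 ± 0.38), and Kera, the corneal and tendon proteoglycan keratocan (3.07 ± 0.44). Tnfaip6, a hyaluronan-binding protein induced by inflammation, had signals of 10.90 and 11.09 in the DMM pools, against 8.18, 7.89 and 8.01 in the time 0 pools, a ratio of 2.97 ± 0.45. Then came Chl1, a neural cell adhesion molecule (2.93 ± 0.54), Lrrc15, a surface protein of activated fibroblasts (2.92 ± 0.32), the neutrophil chemokine Cxcl5 (2.76 ± 0.63), Dkk3, a secreted Dickkopf-family protein (2.71 ± 0.42), and Il33, an alarmin cytokine of stromal cells (2.69 ± 0.36). Cxcl5 was the exception in stability, because without DMM pool 2 its ratio was 2.05 and was no longer called (adjusted p = 0.0671, limma). Fndc1 (2.67 ± 0.31), Col14a1 (2.59 ± 0.30) and Matn2 (2.57 ± 0.31), all of the extracellular matrix, completed the 15 highest. Among these 15, time 0 means lay below the brightness filter (7.93) for Chl1 (7.16), Cxcl5 (7.21), Lrrc15 (7.63) and Il33 (7.66). The filter was applied to the mean over all arrays, so these genes passed it through higher signals in other groups. Whether dim time 0 signals affected the size of their rises was not tested.

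**Figure D2:**
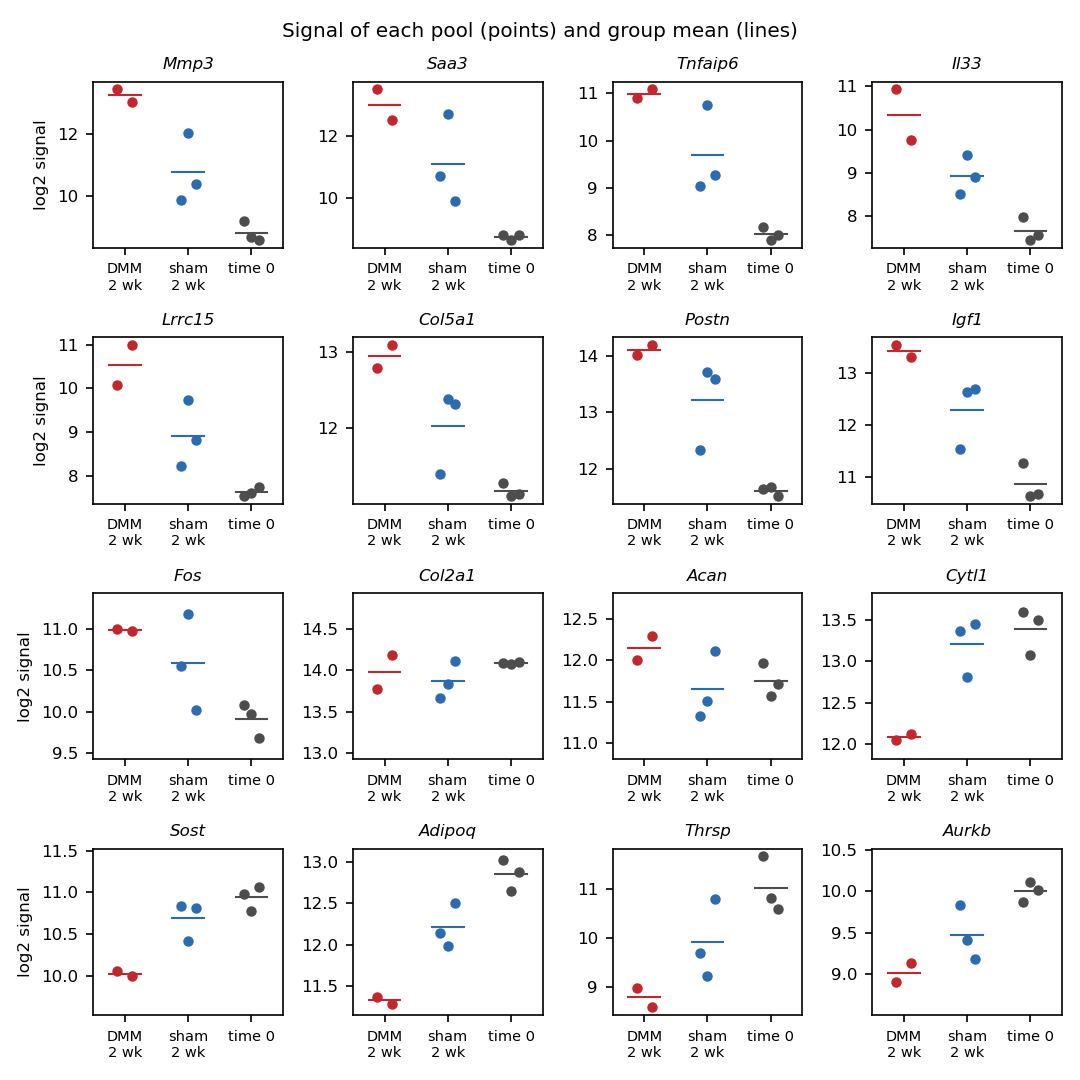
Points give the log2 signal of each pool for 16 genes, with DMM at 2 weeks on the left (2 pools), sham at 2 weeks in the middle (3 pools) and time 0 on the right (3 pools), and lines mark group means. For Mmp3, Saa3, Tnfaip6, Il33, Lrrc15, Col5a1, Postn and Igf1 the DMM pools lie above all time 0 pools with sham pools between or alongside, and for Cytl1, Sost, Adipoq, Thrsp and Aurkb they lie below.

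In the collagen lists outside cartilage, genes rose almost without exception. These lists held collagens of basement membranes as well as of the interstitial matrix. All 6 fibrillar collagen genes tested of types I, III and V were higher, with a median ratio of 1.26. So were 13 of 14 collagens of the beaded, network and FACIT kinds outside cartilage (FACIT collagens link fibrils to each other), with a median of 1.45. The collagens of cartilage, types II, IX and XI, were counted in the cartilage matrix list below. In the same comparison 16.4% of all genes were higher and the median was -0.03. Col3a1, the fibril collagen of young scar and vessel walls, had signals of 15.51 and 15.55 in the DMM pools, against 14.42, 14.19 and 14.21 in the time 0 pools (ratio 1.26 ± 0.22, adjusted p = 0.000287). Col5a1, which sets fibril diameter, had 12.79 and 13.09 against 11.29, 11.12 and 11.15 (ratio 1.76 ± 0.22). The ratios of Col1a1 (0.54 ± 0.13) and Col1a2 (0.36 ± 0.11), the main collagen chains of bone and ligament, were the smallest of these 6 fibrillar genes. Their signals were among the brightest on the array, at 13.87 to 13.92 for Col1a1 in the time 0 pools. Whether bright signals limited the size of rises was not tested. The call of Col1a2 was lost when either DMM pool or time 0 pool 2 was left out (0.33 to 0.39). Larger ratios were seen for the fibril-linking Col14a1 (12.73 and 12.96 in the DMM pools, against 10.65, 9.92 and 10.19 in the time 0 pools), for the beaded-filament chains Col6a1 (2.07 ± 0.28) and Col6a2 (2.09 ± 0.31), for Col18a1, a collagen of basement membranes (2.06 ± 0.25), and for Col12a1 (1.49 ± 0.26). The exception was Col4a5, a basement membrane chain (-0.09 ± 0.11, adjusted p = 0.582).

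The enzymes that process and cross-link collagen rose with it. Of 18 tested, 13 were higher and the median ratio was 0.69. They included the lysyl oxidases Lox (1.16 ± 0.27) and Loxl1 (1.81 ± 0.22), the prolyl hydroxylase subunit P4ha2 (1.13 ± 0.24) and Pcolce, which speeds the trimming of procollagen (1.45 ± 0.26). The other 5 were not called, and with the actin ratio as a covariate 8 of the 18 were. Further along the same route, 11 of 28 genes of the secretory pathway and of endoplasmic reticulum stress were higher and 2 lower (median 0.30), among them the coat protein Sec24d (0.91 ± 0.20) and the retrieval receptor Kdelr3 (0.99 ± 0.22), while the stress target Asns, asparagine synthetase, fell by 0.54 (SE 0.11). The count of genes higher was 17 with array weights or with the muscle signal as a covariate, and 1 with the actin covariate.

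Small leucine-rich proteoglycans, which coat collagen fibrils and space them, were higher in 8 of 11 cases (median ratio 0.99). Aspn (asporin) had signals of 13.24 and 13.63 in the DMM pools, against 11.23, 10.98 and 10.89 in the time 0 pools, a ratio of 2.40 ± 0.30 (adjusted p = 1.68e-05). Behind Kera and Aspn stood Lum (1.58 ± 0.23), Fmod (1.25 ± 0.23), Bgn (1.04 ± 0.17) and Dcn (0.67 ± 0.14). Among 27 glycoproteins and elastic fibre genes 22 were higher and 1 lower (median 1.07), and 14 were called higher with the actin covariate. Postn, periostin, had 14.02 and 14.20 in the DMM pools, against 11.65, 11.67 and 11.52 in the time 0 pools (ratio 2.50 ± 0.32). Large ratios were also measured for the microfibril protein Mfap5 (2.42 ± 0.37), for Fbln2, fibulin-2 (2.31 ± 0.30), for Thbs2, thrombospondin-2 (2.19 ± 0.29), and for Vcan, the large hyaluronan-binding proteoglycan of provisional matrix (1.86 ± 0.39). Fn1, fibronectin, was bright throughout and had a ratio of 0.87 ± 0.17. Integrin-related genes and receptors for this matrix were higher in 11 of 17 cases and lower in 2 (median 0.58). With the actin covariate 5 were higher. Itgbl1, an integrin-beta-like secreted protein, had a ratio of 2.50 ± 0.32, and the list also held the collagen uptake receptor Mrc2 (1.12 ± 0.18) and Itgb1 (0.57 ± 0.10), the common beta chain of the collagen and fibronectin receptors, whereas Itgb3, the beta chain of the vitronectin receptor of osteoclasts and platelets, fell by 0.58 (SE 0.11).

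Of 871 genes in the lists described here, 802 had a probe set of their own and 679 passed the brightness filter. Of the 123 dimmer ones, 31 were higher and 11 lower when all probe sets were tested.

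**Figure D3:**
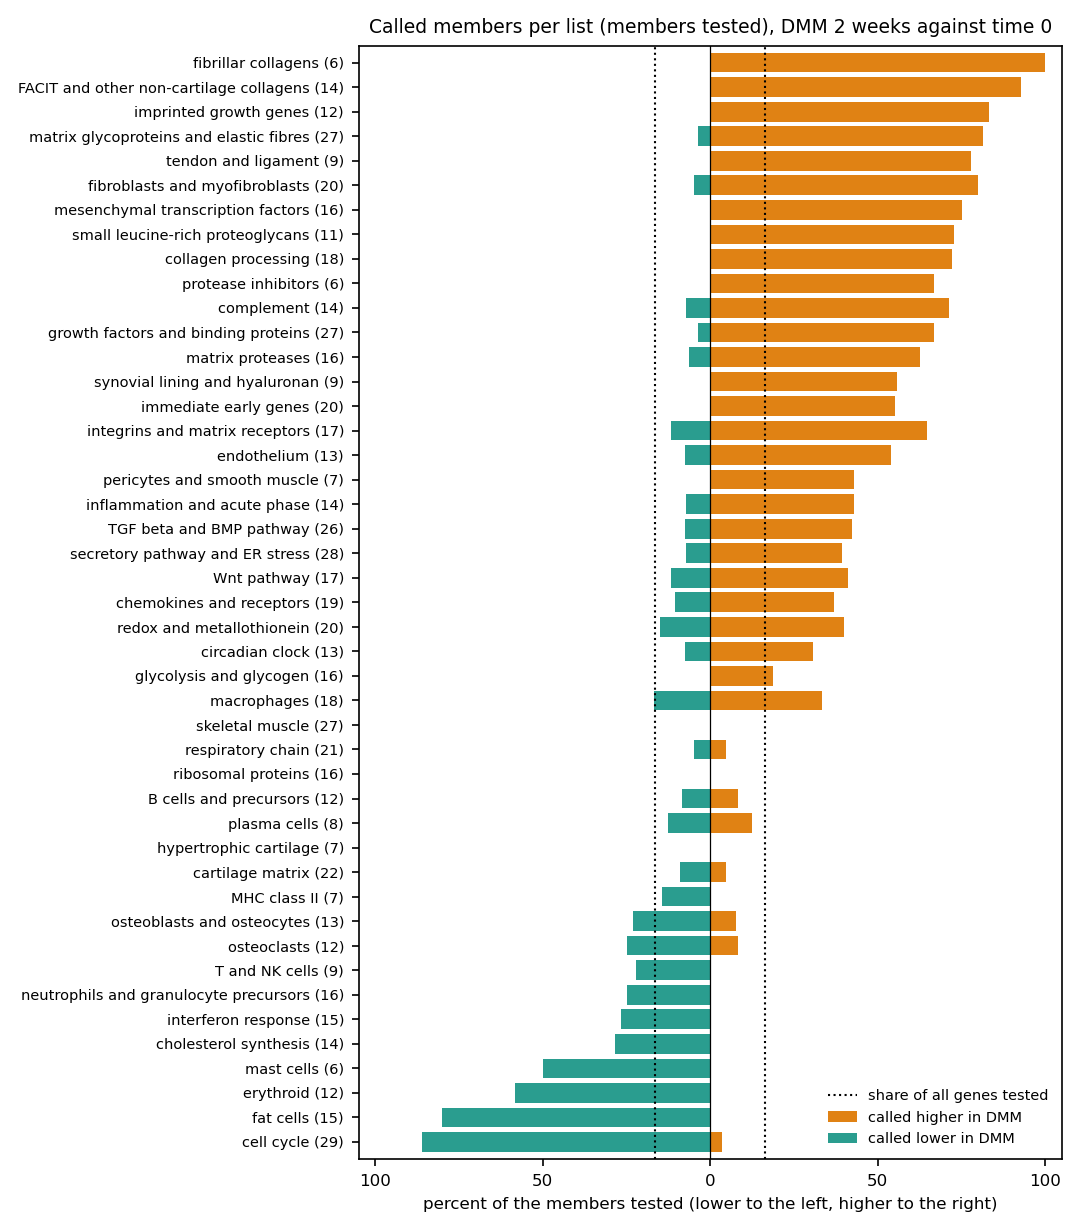
Bars give the percentage of each gene list's tested members (number in brackets) that were called higher, to the right, or lower, to the left, in DMM joints at 2 weeks against time 0, and dotted lines mark the share over all genes, 16.4% higher and 16.5% lower. Lists of at least 6 tested genes run by the share called higher minus the share called lower. Fibrillar collagens I, III and V (6 of 6 higher) stand at the top and the cell cycle (25 of 29 lower) at the bottom.

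Proteases that degrade matrix and their inhibitors rose side by side. Of 16 proteases tested, 10 were higher and 1 lower (median ratio 0.92), and of 6 inhibitors 4 were higher (median 1.05), 2 with the actin covariate. Apart from Mmp3, the rises included the gelatinase Mmp2 (13.55 and 13.84 in the DMM pools, against 11.44, 11.13 and 11.17 in the time 0 pools, ratio 2.45 ± 0.31), its membrane-bound activator Mmp14 (1.36 ± 0.22), the serine protease Htra1 (1.77 ± 0.27) and Adamts12 (1.31 ± 0.22). Among the inhibitors Timp1 had 13.31 and 12.77 in the DMM pools, against 11.17, 10.52 and 10.86 in the time 0 pools (2.19 ± 0.45, adjusted p = 0.00114), Timp2 had a ratio of 1.52 ± 0.19, and Serpina3n, an acute-phase serpin, one of 1.18 ± 0.23. Neither of the tested proteases best known for cartilage breakdown was called. Mmp13, the collagenase of cartilage, had 13.95 and 14.08 in the DMM pools, against 13.37, 13.43 and 13.75 in the time 0 pools, and its ratio of 0.50 ± 0.20 did not pass the test (adjusted p = 0.0668). Adamts5, the main aggrecanase of the mouse, had 10.68 and 10.52 against 11.00, 10.43 and 10.41 (ratio -0.01 ± 0.22, adjusted p = 0.981), so that the groups overlapped. The other aggrecanase, Adamts4, was too dim for the brightness filter, with 8.63 and 8.26 in the DMM pools and 7.78, 7.46 and 7.28 in the time 0 pools, and had a ratio of 0.94 ± 0.28 when all probe sets were tested (adjusted p = 0.0235).

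Some genes named above carry a binding motif of AP-1 in the 150 bases before their start site. AP-1 is the Fos and Jun dimer that injury signals activate. The genes shown all hold the motif, and genes with large rises that lack it were not counted. The 150 bases before the start are shown for 3 genes with large rises and for Mmp13, which was not called, from RefSeq on the GRCm38.p6 build, with the motif TGANTCA in capitals. Of the 300-base promoters (250 before to 50 after the start) 7.81% of all 32851 hold this motif on either strand. The share was 6.03% for genes called higher and 4.70% for genes called lower, against 5.48% for all genes tested. It was found in 3 of 10 matrix proteases with a promoter in the table.
Mmp3, chr9:7445672-7445821, plus strand, motif from -46: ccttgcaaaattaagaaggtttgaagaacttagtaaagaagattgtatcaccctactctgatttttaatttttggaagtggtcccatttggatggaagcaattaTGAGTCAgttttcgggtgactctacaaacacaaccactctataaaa
Mmp13, chr9:7272364-7272513, plus strand, motif from -35: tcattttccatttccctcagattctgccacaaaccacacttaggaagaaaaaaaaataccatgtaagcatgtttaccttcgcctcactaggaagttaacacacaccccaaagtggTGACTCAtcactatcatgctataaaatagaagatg
Tnfaip6, chr2:52037963-52038112, plus strand, motif from -142: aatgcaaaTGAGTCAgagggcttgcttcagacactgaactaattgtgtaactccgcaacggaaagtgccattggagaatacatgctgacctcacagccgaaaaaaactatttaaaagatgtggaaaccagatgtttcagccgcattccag
Lrrc15, chr16:30283255-30283404, minus strand, motif from -53: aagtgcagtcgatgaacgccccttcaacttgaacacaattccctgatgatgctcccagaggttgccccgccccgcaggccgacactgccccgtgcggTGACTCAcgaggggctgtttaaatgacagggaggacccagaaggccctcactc
The letters are a description of these windows, and binding was not measured. The other motif counted, CAGCTG, the E-box, lay in 17.9% of the promoters of genes called higher and 13.6% of those called lower, against 15.4% for all genes tested and 16.3% of all promoters.

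The genes of the AP-1 subunits and other immediate early genes, which respond within minutes to stress and also to dissection, were higher in 11 of 20 cases (median ratio 0.46). Junb had signals of 10.51 and 10.52 in the DMM pools, against 9.46, 9.50 and 9.38 in the time 0 pools (1.07 ± 0.18, adjusted p = 0.000173). Fos had 11.00 and 10.97 against 10.08, 9.97 and 9.68 (1.08 ± 0.33), a call that was lost without either DMM pool or without time 0 pool 3 (0.96 to 1.09). The list's count was 6 without DMM pool 3 and 4 with the actin covariate.

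Genes of fibroblasts and of their wound-healing form, the myofibroblast, were higher in 16 of 20 cases and lower in 1 (median ratio 0.92). Lrrc15 had signals of 10.09 and 11.00 in the DMM pools, against 7.54, 7.60 and 7.74 in the time 0 pools (adjusted p = 8.73e-06). Cthrc1, a collagen triple-helix protein of injured vessels and joints, had a ratio of 2.55 ± 0.39, the dermatopontin gene Dpt 2.27 ± 0.30, the fibroblast surface marker Thy1 1.71 ± 0.19 and the platelet-derived growth factor receptor Pdgfra 1.31 ± 0.20. Tendon and ligament genes were higher in 7 of 9 cases (median 1.54). Tnmd had 11.61 and 12.27 in the DMM pools, against 9.10, 8.50 and 8.22 in the time 0 pools, and Thbs4, a tendon thrombospondin, had a ratio of 1.54 ± 0.25. Scx, the transcription factor scleraxis that specifies tendon, moved less (0.43 ± 0.12), and it was not called without DMM pool 3 (0.37). The synovial lining list had 5 of 9 genes higher (median 0.55), or 2 with the actin covariate, with the hyaluronan synthase Has1 (1.10 ± 0.23) and the hyaluronan receptor Cd44 (0.51 ± 0.10) beside Tnfaip6. Prg4, lubricin, was the brightest of them, with 15.12 and 15.20 in the DMM pools and 14.73, 14.44 and 14.66 in the time 0 pools (0.55 ± 0.18), and was not called without DMM pool 2, DMM pool 3 or time 0 pool 2 (0.47 to 0.59).

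Growth factors and their binding proteins were higher in 18 of 27 cases and lower in 1 (median ratio 0.73), and 10 were higher with the actin covariate. Igf1, the insulin-like growth factor that drives matrix synthesis, had signals of 13.53 and 13.30 in the DMM pools, against 11.27, 10.64 and 10.68 in the time 0 pools, a ratio of 2.55 ± 0.30 (adjusted p = 1.16e-05) or 5.85-fold, in 4 of 4 probe sets in the same direction. Ptn, the heparin-binding growth factor pleiotrophin, rose by 2.51 ± 0.32, the receptor Egfr by 1.34 ± 0.26 and the carrier Igfbp3 by 1.12 ± 0.23. In the TGFβ and BMP pathway, which drives fibrosis and osteophyte growth, 11 of 26 genes were higher and 2 lower (median 0.19). The ligands Tgfb2 (1.06 ± 0.21) and Tgfb3 (0.89 ± 0.15), the latent-form carrier Ltbp1 (1.08 ± 0.16) and the follistatin-like Fstl1 (2.00 ± 0.23) were higher, and with the actin covariate 6 of the 26 were. The BMP antagonist Grem1 was lower, at 8.64 and 7.94 in the DMM pools and 8.67, 9.03 and 9.13 in the time 0 pools (-0.65 ± 0.18), but not without DMM pool 3 (-0.31). In the Wnt pathway 7 of 17 genes were higher and 2 lower (median 0.08). Those that rose were secreted modulators and receptors, Sfrp2 (11.62 and 11.55 in the DMM pools, against 9.17, 9.05 and 8.92 in the time 0 pools, ratio 2.54 ± 0.25), Dkk3 and Fzd1 (1.61 ± 0.19) among them. The inhibitor Dkk1 was lower (-0.79 ± 0.21), a call that was lost without DMM pool 3 (-0.68).

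Imprinted genes, expressed from the chromosome of 1 parent and active in growing tissue, were higher in 10 of 12 cases tested (median ratio 0.77). Meg3, a long noncoding RNA, had signals of 12.81 and 13.21 in the DMM pools, against 10.97, 10.68 and 10.85 in the time 0 pools, a ratio of 2.17 ± 0.27 (adjusted p = 1.97e-05) with 8 of 8 probe sets in the same direction. Its neighbour Rian had a ratio of 2.11 ± 0.29, the receptor adaptor Grb10 1.22 ± 0.20, the cyclin-dependent kinase inhibitor Cdkn1c 0.94 ± 0.18 and the growth factor Igf2 0.43 ± 0.08. Nnat (neuronatin), an imprinted gene below the brightness filter, went the other way, with 6.54 and 6.30 in the DMM pools and 8.68, 7.72 and 8.68 in the time 0 pools (-1.94 ± 0.33 when all probe sets were tested, adjusted p = 0.000385). Transcription factors of mesenchyme were higher in 12 of 16 cases (median 0.84), led by Aebp1 (2.08 ± 0.22) and including Meox2 (1.37 ± 0.19) and Runx1 (1.03 ± 0.22). Prrx2, a limb homeobox gene below the brightness filter, had 9.07 and 9.09 in the DMM pools and 7.54, 7.23 and 7.15 in the time 0 pools (1.77 ± 0.16 when all probe sets were tested, adjusted p = 3.69e-06).

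Some inflammatory genes had large ratios and others had none. Of 14 cytokine and acute-phase genes tested, 6 were higher and 1 lower, with a median ratio of 0.14. Besides Saa3, Tnfaip6 and Il33 (10.94 and 9.76 in the DMM pools, against 7.98, 7.45 and 7.56 in the time 0 pools), they were the long pentraxin Ptx3 (2.36 ± 0.26), the oncostatin M receptor Osmr (1.60 ± 0.26) and Nfkbiz, a nuclear regulator of NF-κB targets (1.24 ± 0.21). Il1b, the cytokine most used to provoke cartilage breakdown in culture, had 10.10 and 9.52 in the DMM pools, against 9.84, 9.66 and 9.42 in the time 0 pools (0.17 ± 0.22, adjusted p = 0.612, limma). Several classical mediators were too dim for the filter. When all probe sets were tested, Il6 had 8.17 and 7.18 in the DMM pools, against 6.10, 5.70 and 5.87 in the time 0 pools (1.78 ± 0.54, adjusted p = 0.0281), and Ptgs2, the inducible cyclooxygenase, 8.58 and 8.87 against 7.11, 6.75 and 6.83 (1.83 ± 0.38, adjusted p = 0.00206). Tnf had 7.44 and 7.34 against 7.37, 7.42 and 7.41 (-0.01 ± 0.11, adjusted p = 0.981).

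Chemokines and their receptors were higher in 7 of 19 cases and lower in 2 (median ratio 0.14), and 4 were higher without DMM pool 2 or with the actin covariate. Ccl2, the monocyte attractant, had signals of 9.26 and 9.28 in the DMM pools, against 8.23, 8.46 and 8.47 in the time 0 pools (0.88 ± 0.13), and Ccl8, of the same family, 11.18 and 9.72 against 8.68, 8.46 and 8.32 (1.96 ± 0.35, or 1.23 without DMM pool 2). Ackr3, a scavenger receptor of Cxcl12, rose by 1.18 ± 0.23, whereas Cxcr4, its signalling receptor on marrow cells, fell by 0.49 (SE 0.09). Complement genes were higher in 10 of 14 cases and lower in 1 (median 0.42), led by the classical-pathway protease C1s1 (1.90 ± 0.24) and the anaphylatoxin receptor C3ar1 (1.80 ± 0.28). That count was 5 without DMM pool 2 and 4 with the actin covariate. Macrophage genes were split, with 6 of 18 higher, 3 lower and a median of 0.04, and 2 higher and 1 lower with the actin covariate. The shares were 33.3% higher and 16.7% lower, against 16.4% and 16.5% of all genes. Of the lower ones 1 was called without time 0 pool 1, and in limma 0 without DMM pool 3 (4 at an unadjusted p under 0.05). The monocyte co-receptor Cd14 (1.03 ± 0.23) and Ms4a7 (1.09 ± 0.16) were higher, and the scavenger receptor of resident macrophages Cd163 was lower, at 9.59 and 9.34 in the DMM pools and 10.50, 10.27 and 10.07 in the time 0 pools (-0.81 ± 0.19), although not without DMM pool 3 (-0.69).

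Cartilage matrix genes gave a contrast to the fibrous collagens. Of 22 tested, 1 was higher, 2 were lower and 19 were not called, with a median ratio of -0.12. Col2a1, the main cartilage collagen, had signals of 13.77 and 14.19 in the DMM pools, against 14.09, 14.08 and 14.10 in the time 0 pools (-0.11 ± 0.36, adjusted p = 0.848). Acan, aggrecan, had 12.01 and 12.29 against 11.97, 11.57 and 11.71 (0.40 ± 0.21, adjusted p = 0.166). The DMM pools of Acan lay above the time 0 pools by little, and those of Col2a1 fell on either side of them. The clear exception was Cytl1, a cytokine-like protein secreted by chondrocytes, with 12.05 and 12.12 in the DMM pools, against 13.59, 13.08 and 13.49 in the time 0 pools, a ratio of -1.30 ± 0.19 (adjusted p = 7.88e-05) or 2.46-fold lower in DMM. Comp, cartilage oligomeric matrix protein, which tendon makes too, was higher (0.61 ± 0.19) but was not called without DMM pool 3 (0.40) or time 0 pool 2 (0.47). Snorc, a chondrocyte transmembrane proteoglycan, was lower (-0.41 ± 0.14), and its call was lost without either DMM pool and without time 0 pool 1 or 3 (-0.49 to -0.32). None of 7 genes of hypertrophic cartilage was called in limma (1 at an unadjusted p under 0.05), and Col10a1 stood at 10.84 and 11.75 in the DMM pools, against 11.85, 11.88 and 11.77 in the time 0 pools (-0.54 ± 0.38, adjusted p = 0.30), a ratio that was -0.09 without DMM pool 2 and -0.99 without DMM pool 3.

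In bone, 3 of 13 osteoblast and osteocyte genes were lower and 1 higher (median ratio -0.19), a share of lower calls (23.1%) not far from the 16.5% of all genes, and 1 was lower without DMM pool 2, DMM pool 3 or time 0 pool 3. Sost, sclerostin, the osteocyte inhibitor of bone formation, had signals of 10.05 and 9.99 in the DMM pools, against 10.98, 10.78 and 11.06 in the time 0 pools (-0.92 ± 0.20, adjusted p = 0.00154). The gene called higher was Pdpn, podoplanin, which early osteocytes share with synovial fibroblasts and lymph vessels (11.93 and 11.70 in the DMM pools, against 9.66, 9.30 and 9.54 in the time 0 pools, ratio 2.31 ± 0.31). Osteoclast genes were lower in 3 of 12 cases, a share also not far from the 16.5% of all genes. The count was 1 without DMM pool 2, DMM pool 3 or time 0 pool 3, and 1 osteoclast gene was higher. That 1 was Tnfsf11, the RANK ligand made by stromal cells for osteoclasts, with 9.35 and 8.99 in the DMM pools and 8.14, 8.06 and 8.03 in the time 0 pools (1.09 ± 0.29), which was not called without DMM pool 2 (0.91). Mmp9, the gelatinase of osteoclasts and neutrophils, was lower (-0.36 ± 0.11), but not without either DMM pool or time 0 pool 3 (-0.40 to -0.30).

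Genes of fat cells fell in DMM joints. Of 15 tested, 12 were lower, with a median ratio of -0.89, and between 11 and 14 were lower in each alternative fit and with any 1 pool left out. Adipoq, adiponectin, had signals of 11.37 and 11.29 in the DMM pools, against 13.02, 12.65 and 12.87 in the time 0 pools (-1.51 ± 0.23, adjusted p = 0.00011), so it was 2.86-fold lower in DMM. Thrsp, a regulator of fatty acid synthesis, had the lowest ratio of all genes called, with 8.98 and 8.57 against 11.68, 10.83 and 10.59 (-2.26 ± 0.44). The lipid droplet protein Cidec (-1.76 ± 0.23), the lipase Lipe (-1.29 ± 0.14), the triglyceride synthase Dgat2 (-1.25 ± 0.19), the hormone Retn (-1.14 ± 0.16) and the master regulator Pparg (-0.87 ± 0.13) fell too. Pck1, a gene of glyceride formation in fat below the brightness filter, had 6.88 and 7.07 in the DMM pools and 9.95, 9.28 and 9.19 in the time 0 pools (-2.50 ± 0.32 when all probe sets were tested, adjusted p = 2.78e-05). The 15 lowest ratios among genes called also included the cytochrome Cyp2e1 (-2.07 ± 0.49), the carboxylesterase Ces1d (-1.93 ± 0.18), the fatty acid synthase Fasn (-1.31 ± 0.25), the paraoxonase Pon1 (-1.14 ± 0.24) and the cysteine dioxygenase Cdo1 (-1.18 ± 0.34, not called without either DMM pool, -1.20 and -1.17). The rest of those 15 were Tmem45b, a membrane protein (-1.87 ± 0.30), the interferon-induced Ifi27l2a (-1.26 ± 0.26), Cytl1 and an immunoglobulin kappa variable segment (-1.13 ± 0.42), whose call was lost with any 1 of the 5 pools left out (-1.21 to -1.08).

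Cell cycle genes formed the other group that fell together. Of 29 tested, 25 were lower and 1 higher (median ratio -0.67). The list median was -0.61 and -0.74 in the DMM pools and -0.02, -0.33 and -0.66 in the sham pools. Sham pool 3 thus lay below DMM pool 2, and in limma no member was called between DMM and sham joints. Aurkb, the kinase of chromosome segregation, had signals of 8.91 and 9.13 in the DMM pools, against 9.87, 10.11 and 10.01 in the time 0 pools (-0.98 ± 0.14, adjusted p = 6.56e-05). Cdk1, the mitotic kinase, had 11.34 and 11.34 against 11.84, 12.04 and 12.05 (-0.63 ± 0.12), the topoisomerase Top2a a ratio of -0.60 ± 0.12, the replication helicase subunit Mcm6 one of -0.79 ± 0.14, the thymidine kinase Tk1 one of -0.97 ± 0.21 and the mitotic activator Cdc20 one of -0.67 ± 0.13. The 1 gene higher was Ccnd2, a cyclin of the entry into the cycle that growth factors induce (0.87 ± 0.14). The count of 25 was 23 without DMM pool 2 and 20 without DMM pool 3, and it was 11 with the actin covariate.

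Promoters of this group share short motifs that mark mitotic genes, the cell cycle homology region TTTGAA and the CCAAT box. They are shown for 3 of the genes above, over the 110 bases before the start (RefSeq, GRCm38.p6), with each match on either strand in capitals. These motifs were chosen after the ratios had been seen. TTTGAA lay in 12 of 24 cell cycle genes with a promoter in the table (48.0% of their promoters), against 12.1% of the promoters of genes tested and 17.9% of all promoters. CCAAT lay in 20 of the 24 (84.0% of their promoters), against 36.9% for genes tested and 37.4% of all. In the promoters of genes called lower the shares were 15.9% and 41.3%, and in those of genes called higher 9.92% and 34.5%.
Cdk1, chr10:69352913-69353022, minus strand, TTTGAA from -71 and -15, CCAAT from -80 and -48: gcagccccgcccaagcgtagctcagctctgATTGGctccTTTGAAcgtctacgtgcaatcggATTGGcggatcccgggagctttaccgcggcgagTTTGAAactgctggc
Top2a, chr11:99024190-99024299, minus strand, TTTGAA from -23, CCAAT from -98, -78 and -58: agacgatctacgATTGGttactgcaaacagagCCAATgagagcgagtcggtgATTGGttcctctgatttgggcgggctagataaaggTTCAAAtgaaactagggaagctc
Cdc20, chr4:118437344-118437453, minus strand, TTTGAA from -18, CCAAT from -53 and -8: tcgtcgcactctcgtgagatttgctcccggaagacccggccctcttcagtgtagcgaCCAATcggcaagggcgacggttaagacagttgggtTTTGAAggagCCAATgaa

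Blood cell lists of the marrow had low medians as well, but few of their calls held when a pool was left out. Of 12 erythroid genes 7 were lower (median ratio -0.75), or 11 with the muscle signal as a covariate or only the compared groups fitted. In limma 0 of them were called without DMM pool 2 (8 lower at an unadjusted p under 0.05), without DMM pool 3 (3 at that level) or without time 0 pool 2 (7) or 3 (6), and with the actin covariate 0 were called and 0 reached that level. In time 0 pool 1 the erythroid list already lay below the other time 0 pools, at a median of -0.29 from the group mean, against 0.07 and 0.21, and the DMM pools were at -0.71 and -0.76. Sham pool 3, at -1.18, lay below both DMM pools. Trim10, an erythroid gene, had signals of 10.38 and 10.39 in the DMM pools, against 11.13, 11.48 and 11.67 in the time 0 pools (-1.04 ± 0.35), and was among those lost (-1.05 to -0.92). Neutrophil genes were lower in 4 of 16 cases (median -0.35), a share not far from the 16.5% of all genes. The count was 1 without DMM pool 2, DMM pool 3 or time 0 pool 1, 2 without time 0 pool 2, 8 with quantile normalization and, in limma, 0 with the actin covariate (2 at an unadjusted p under 0.05). Among them was the granulocyte colony-stimulating factor receptor Csf3r, with 10.31 and 10.26 against 11.18, 10.91 and 10.80 (-0.67 ± 0.14), which stayed called with any pool left out but not with the actin covariate (adjusted p = 0.0773). Of 12 B cell genes 1 was lower and 1 higher with a median of -0.62, and 8 were lower with the 3′ to 5′ ratio of Gapdh or the muscle signal as a covariate, 6 with array weights or with only the compared groups fitted. In limma 0 were lower without DMM pool 2 (1 at an unadjusted p under 0.05), DMM pool 3 (2) or time 0 pool 2 (1), or with the actin covariate (0). Of 6 mast cell genes 3 were lower (in limma 0 without DMM pool 3, with 3 at an unadjusted p under 0.05). MHC class II genes were lower in 1 of 7 cases (14.3%), near the share of all genes.

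**Figure D4:**
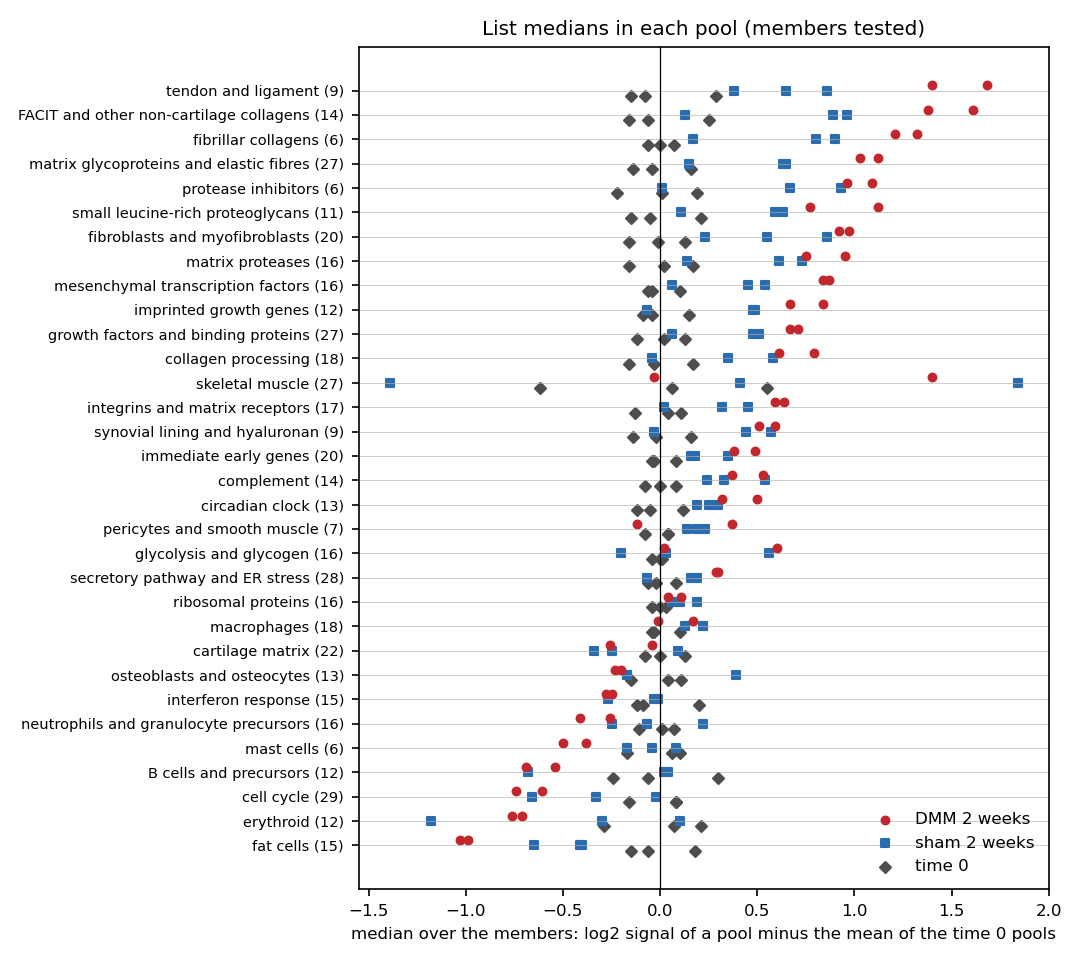
For each gene list (tested members in brackets), points give the median over its members of a pool's log2 signal minus the mean of the time 0 pools, with DMM at 2 weeks above, sham at 2 weeks in the middle and time 0 below in each row. The DMM pools lie apart from the time 0 pools for the tendon list (1.40 and 1.68 in the DMM pools) and fat cells (-0.99 and -1.03), whereas skeletal muscle spreads over all 3 groups.

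Skeletal muscle genes varied between pools more than between groups. None of 27 was called in limma, and 0 reached an unadjusted p under 0.05. The creatine kinase Ckm had signals of 13.26 and 11.59 in the DMM pools and 11.06, 12.32 and 11.85 in the time 0 pools (0.68 ± 0.73), and the myosin Myh1 12.46 and 11.17 in the DMM pools and 8.66, 11.66 and 10.32 in the time 0 pools (1.60 ± 1.17). Glycolysis genes were higher in 3 of 16 cases (18.8%; 1 without DMM pool 2) and respiratory chain genes higher in 1 and lower in 1 of 21, shares near or below the background. Of the 21 respiratory chain genes, 7 were lower with the muscle signal as a covariate, 5 with quantile normalization and 4 with array weights. In limma 0 were lower without the brightness filter or with the actin covariate. None of 16 ribosomal protein genes was called in limma (1 at an unadjusted p under 0.05), with a median ratio of 0.06. Endothelial genes were higher in 7 of 13 cases and lower in 1, yet higher in 2 without DMM pool 2 or with the actin covariate, 3 without time 0 pool 2 and 4 without time 0 pool 3. Rgs5, a regulator of G protein signalling in pericytes, had 12.62 and 12.61 in the DMM pools, against 11.48, 11.35 and 11.47 in the time 0 pools (1.18 ± 0.17).

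Several smaller groups split by member, to be read against 16.4% higher and 16.5% lower over all genes. Among redox genes 8 of 20 were higher and 3 lower (median ratio 0.07). Without DMM pool 2, 5 were higher and in limma 0 lower (4 at an unadjusted p under 0.05), without DMM pool 3, 1 was lower, and with the actin covariate 3 were higher and 0 lower (2 at that level). The list had the metal-binding metallothionein Mt2 at 13.67 and 13.51 in the DMM pools, against 12.02, 11.43 and 11.74 in the time 0 pools (1.86 ± 0.31), the extracellular superoxide dismutase Sod3 (1.29 ± 0.26) and the endoplasmic reticulum peroxidase Gpx7 (1.20 ± 0.22) among the rises. Interferon response genes were lower in 4 of 15 cases (26.7%, median -0.31), or 2 with the actin covariate, Ifi27l2a among them. Clock genes cycle over the day, and the time of dissection is not given in the sources used here. In this list 4 of 13 were higher and 1 lower, or 2 higher without DMM pool 2, DMM pool 3 or time 0 pool 2 and 1 with the actin covariate, with the repressor Nr1d2 at 11.74 and 11.88 in the DMM pools, against 10.34, 10.62 and 10.99 in the time 0 pools (1.16 ± 0.28), and the activator Arntl lower (-0.64 ± 0.15, not called without DMM pool 3, -0.54). Mbp, a myelin protein, fell by 0.50 (SE 0.07) in a Schwann cell list of 4 genes in which 1 was higher and 1 lower. The call of Mbp was lost when the mean of its probe sets was used. Cholesterol synthesis genes were lower in 4 of 14 cases (28.6%, median -0.20), and in 2 without DMM pool 3 or time 0 pool 2 or with the actin covariate. Of 7 genes of pericytes and smooth muscle 3 were higher (1 without DMM pool 2), and of 8 plasma cell genes 1 was higher and 1 lower. Of 29 tested genes that the study names for its arrays, 21 were higher and 2 lower. The study chose that list on these arrays, so the count is not independent evidence of a direction. Of 14 tested genes of its real-time PCR 10 were higher. The study took these from its earlier work, which used the 8-week samples of this series, so this count is not independent evidence either.

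Sham joints at 2 weeks were set beside these values. They share the time 0 pools with the DMM comparison, so the ratios to time 0 of both operated groups are not independent. Against time 0, 3789 genes were called in DMM joints and 232 (2.02%) in sham joints. Between DMM and sham joints 334 genes were called (2.90%), 226 higher in DMM (1.96%) and 108 lower (0.938%). Median ratios to time 0 were 1.45 in DMM and 0.66 in sham joints for the network and FACIT collagens, 1.54 and 0.63 for tendon genes, 0.92 and 0.46 for proteases, -0.89 and -0.46 for fat cell genes, and -0.67 and -0.34 for the cell cycle. Sham pools differed among themselves, since Mmp3 had 9.88, 12.01 and 10.38 in the sham pools and Saa3 10.71, 12.70 and 9.92. For Saa3 the highest sham pool lay above the lower DMM pool (12.51), and the difference between DMM and sham did not pass the test (adjusted p = 0.167), whereas for Mmp3 the DMM pools lay above all sham pools (2.47 ± 0.58, adjusted p = 0.0332). Cytl1 had 13.36, 12.81 and 13.45 in the sham pools, all above the DMM pools, and a sham ratio to time 0 of -0.18 against -1.30 in DMM. For Adipoq the sham pools, at 12.14, 11.99 and 12.50, lay between both groups. The calls between DMM and sham rest on few pools, because 28 of the genes named by rule were called, against 0 in limma without DMM pool 3 (97 at an unadjusted p under 0.05) or without sham pool 1 (97 at that level).

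Over the later weeks the lists took different courses. For this, each list's median was taken within a pool and averaged over the pools of a group. The network and FACIT collagens in DMM joints had a median ratio to time 0 of 1.50 in week 2, 0.98 in week 4, -0.25 in week 8 and -0.18 in week 16, and in sham joints 0.66, -0.23, -0.42 and -0.72. Fat cell genes stayed low in DMM joints, at -1.01, -1.03, -0.70 and -0.73, and in sham joints lay at -0.49, -0.41, -0.46 and -0.67. The cell cycle list in DMM joints was at -0.68, -0.30, 0.12 and 0.12, and in sham joints at -0.34, 0.07, 0.03 and 0.21. Cartilage matrix genes, little moved at 2 weeks in DMM joints, stood at -0.15, -0.52, -0.87 and -0.92, and sham joints followed at -0.17, -0.65, -0.68 and -1.14. Signals of Mmp3 averaged 13.23 ± 0.29 in DMM joints in week 2, 13.09 ± 1.32 in week 4, 10.13 ± 0.09 in week 8 and 10.05 ± 0.36 in week 16, against 8.82 ± 0.34 before surgery (SD over 2 pools in week 2 and over 3 otherwise). Those of Saa3 averaged 13.01 ± 0.71 in week 2, 12.55 ± 1.91 in week 4, 8.79 ± 0.16 in week 8 and 8.58 ± 0.15 in week 16 of DMM joints, against 8.76 ± 0.09 before surgery. The differences between weeks were not tested.

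**Figure D5:**
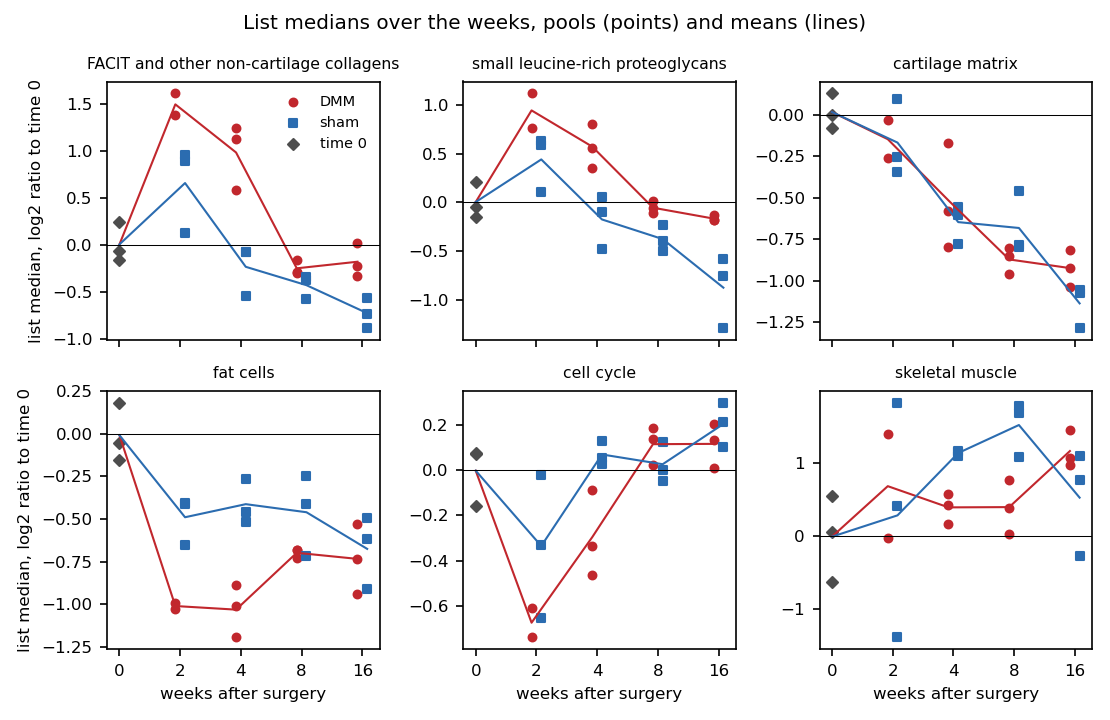
Median log2 ratio to time 0 over the members of 6 gene lists against weeks since surgery, with points for pools and lines for group means of DMM (circles), sham (squares) and time 0 (diamonds). Collagens and small proteoglycans in DMM joints are highest in week 2, fat cell genes stay below 0 throughout, the cell cycle list is lowest in week 2, and the cartilage matrix list is lower in week 16 than in week 2 in both operated groups.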

How the data were processed

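The deposited values are log2 signals per probe set, which the authors made from scanned 1-colour arrays and scaled by a method called systematic variation normalization. They were used as deposited (array medians 7.90 to 7.95). All 26 arrays were fitted in limma 3.58.1 (R 4.3.3) with 1 coefficient per condition (17 residual degrees of freedom), over the 22489 probe sets whose mean signal exceeded 7.93 (log2), without 64 control probe sets. Adjusted p-values are Benjamini-Hochberg over all of them. Of 45101 probe sets, 34958 carry 1 symbol in the array annotation, 932 several and 9211 none; only the first stand for genes. Ratios of a pool (SLR) are its log2 signal minus the time 0 mean. The genes named are the 15 highest and 15 lowest ratios among genes called with separate pools, members of 49 gene lists, and those the study named. The comparison, lists and genes were chosen with earlier results of these data known. Lists are described by counts and medians, with no set test. The number of pools limits the precision (smallest exact p for 2 against 3: 0.2), and p-values measure the spread between pools. Alternatives were filters, normalization, weights, priors, covariates, the replicate block, fits of fewer groups, and each pool left out. The fit was tested on simulated data. Promoters are from RefSeq (GRCm38.p6), and 9302 of 11511 genes tested had one.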

Additional observations from a re-analysis of the deposited data

Results flagged for a closer look

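Of 142 genes named above, 27 differed between DMM and sham joints at 2 weeks in limma (adjusted p under 0.05). The calls between these groups rest on few pools, and 0 of the genes named by rule were called in limma without DMM pool 3 or sham pool 1 (97 each at an unadjusted p under 0.05). The differences, DMM minus sham on the log2 scale, were positive for 23. Among secreted enzymes, inflammatory genes and markers of fibroblasts and tendon they were 2.47 for Mmp3, 1.70 for Tnmd, 1.62 for Lrrc15, 1.52 for Ptx3, 1.41 for Il33, 1.16 for Mt2, 0.90 for Thy1 and 0.57 for Ccl2. Among matrix genes they were 1.42 for Matn2, 1.33 for Thbs2, 1.28 for Fndc1, 1.16 for Col6a1, 1.11 for Col12a1 and 0.91 for Col5a1. For the integrin-related genes Itgbl1 and Itgb1 they were 1.33 and 0.43. Among growth factors, their regulators and imprinted genes they were 1.13 for Igf1, 1.13 for Rian, 1.11 for Sfrp2, 0.81 for Grb10, 0.77 for Fzd1, 0.69 for Ltbp1 and 0.39 for Igf2. The 4 that were lower in DMM were Cytl1 (-1.12), Adipoq (-0.88), Itgb3 (-0.53) and Mbp (-0.28). The actin 3′ to 5′ ratio was 1.14 and 0.719 in the DMM pools and 0.608, 0.841 and 0.914 in the sham pools, and with it as a covariate 4 of the genes named by rule were called, against 28 without it. No test for outlying pools was run on these groups of 2 or 3 pools. Counts with array weights and with each pool left out are given below.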

How the results depend on the processing

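Of the 133 called genes named above, 97 were called under all 15 alternatives and none reversed. The fewest were kept with the actin 3′ to 5′ ratio as a covariate, an alternative chosen after seeing the data (102), without DMM pool 3 (119) and without DMM pool 2 (123). That covariate also left 2040 probe sets called, 713 genes higher and 524 lower. The covariate and the group overlap, and the cause was not tested. Leaving out 1 pool at a time gave 4279 to 6302 probe sets (lowest without DMM pool 3), 1387 to 1935 genes higher and 1043 to 1640 lower (1236 without DMM pool 2, 1043 without DMM pool 3). Across the other alternatives the count of probe sets lay between 5766 and 8094. The count of genes by rule that differed between DMM and sham was the least stable. It was 28, and became 18 with the Gapdh ratio as a covariate, 4 with the actin ratio, 4 with array weights, 93 with the muscle score, 18 without a brightness filter, 16 with the replicate block, 0 in limma when only both groups were fitted (108 at an unadjusted p under 0.05), and 0 to 88 with 1 pool left out (0 without DMM pool 3 or sham pool 1, 2 without DMM pool 2, 61 without sham pool 2 and 88 without sham pool 3).

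Genes that were not called changed sign in places. Col2a1 had a ratio of 0.22 with the Gapdh ratio, 0.28 with the actin ratio and -0.32 to 0.10 with 1 pool left out (0.10 without DMM pool 2). Adamts5 had 0.06 with the Gapdh ratio, 0.12 with array weights, 0.12 with the muscle score and -0.11 to 0.19 with 1 pool left out (0.07 without DMM pool 3, 0.19 without time 0 pool 1). Ckm had -0.10 with the muscle score and -0.16 to 1.51 with 1 pool left out, Il1b -0.12 to 0.45 with 1 pool left out, and Col4a5 0.03 with the actin ratio and -0.24 to 0.05 with 1 pool left out, each turned by leaving out DMM pool 2. Mmp13 became called with the muscle score (0.61), with only the compared groups fitted (0.50) and without time 0 pool 3 (0.61), and Acan with the muscle score (0.54).

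The replicate numbers do not pair the pools, since the study joined pools across times at random. With the number as a block, 6650 probe sets, 1894 genes higher and 1804 lower were called, and same-numbered pools correlated at 0.28 and 0.238 in their deviations from the group means. Counts past an SLR of 0.5 in both DMM pools were 2317 in all, 2331 against the log2 of the mean time 0 signal and 2967 without the filter.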
